A study of Homo sapiens with 4 samples.

Results

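The proteasome subunit genes were taken as the protein-coding rows whose symbols begin with PSMA to PSMG followed by a number. Of 33845 gene rows, 47 matched. PSMC3IP matched by name only, since it encodes a factor of meiotic recombination and no proteasome subunit, so 46 proteasome genes remained. They comprised 7 alpha and 7 beta subunits of the constitutive core, 3 inducible core subunits, 6 ATPases and 11 other subunits of the regulatory particle, 3 chaperones of the regulatory particle, 4 activators, the inhibitor PSMF1 and 4 assembly chaperones of the core. PSMA8 and PSMB11 were not analysed here. All 46 were measured, and 43 reached a mean of at least 1 FPKM (a fragment count corrected for gene length and library size) over the 4 libraries and entered the gene test. PSMA2, PSMA6 and PSMD9 did not.

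The proteasome is the large protease of the cytosol and nucleus that degrades proteins tagged with ubiquitin. Its barrel-shaped core holds outer rings of alpha subunits, which gate the entry, and inner rings of beta subunits, of which PSMB5, PSMB6 and PSMB7 carry the proteolytic sites. The regulatory particle binds ubiquitin chains, removes them and threads the substrate into the core with its ring of ATPases, whereas the PSME activators open the core without ATP. Transcription of these genes is known to be raised by NFE2L1 when proteasome activity falls short, and interferon raises PSMB8, PSMB9, PSMB10, PSME1 and PSME2.

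The study asked which mRNAs change when GAP43, a membrane-associated growth-cone protein of neurons, is overexpressed in SW620, an established colorectal cancer cell line. The GAP43 group was 2 libraries of SW620 cells stably transfected with a plasmid for Flag-tagged GAP43 that confers neomycin resistance. The Control group was 2 libraries of SW620 cells stably transfected, per the labels, with a control plasmid. All cells were at passages 12 to 15, and whether a line was a pool or a clone is not given in the sources used here. Effects of the plasmid, of selection and of GAP43 cannot be told apart.

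The GAP43 gene had 16.3 and 9.89 FPKM in the GAP43 libraries, against 4.404 and 4.14 FPKM in the Control libraries. The fragments recovered from the FPKM values summed to 21883137 and 17473071 in the GAP43 libraries and to 21296930 and 20843857 in the Control libraries. The deposited FPKM were not scaled by these sums. GAP43 replicate 2 was divided by 19517128, more than its own sum, which lowers its values. Control replicate 2 was divided by 19322583, less than its own sum, which raises its values. The divisors of GAP43 replicate 1 (22048135) and Control replicate 1 (21107319) lay near their sums. GAP43 replicate 2 was the shallowest, and on the deposited FPKM it had the lowest value of the 4 libraries for 5916 of the 13507 genes tested. The part of the divisors in that count was not tested. All 8 markers of colorectal epithelium reached 1 FPKM on average, summing to 1745 to 1811 FPKM in the GAP43 libraries and 1723 to 2421 FPKM in the Control libraries. The 4 leukocyte markers summed to 0.0962 to 0.322 FPKM in the GAP43 libraries and to 0.0616 to 0.110 FPKM in the Control libraries. The 3 endothelial markers summed to 0.701 to 0.760 FPKM in the GAP43 libraries and to 0.645 to 0.706 FPKM in the Control libraries, and the 3 fibroblast markers found summed to 6.62 to 6.77 FPKM in the GAP43 libraries and to 5.77 to 9.39 FPKM in the Control libraries. Whether the 2 libraries of a group were grown apart is not stated, and every p-value rests on a spread that may be technical only.

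Nearly every proteasome mRNA lay lower in GAP43-overexpressing cells, by a small amount that the 2 GAP43 replicates did not share equally. The log2 fold change, which is the GAP43 mean minus the Control mean of log2(FPKM + 1) and understates changes of low genes, was below 0 for 41 of the 43 tested genes. That held for 55.5% of all genes tested. Among protein-coding genes it held for 74.2% at a mean of 10 to 30 FPKM and 86.4% at 30 to 100 FPKM. The log2 fold change of the proteasome genes ranged from -0.63 for PSMD8 to 0.22 for PSMB9, with a median of -0.34, beside a median of -0.04 over all genes tested. In 31 of the 43 genes both GAP43 libraries lay below both Control libraries, against 24.1% of all genes tested. Here and below, such an order is that of the deposited FPKM. Where libraries of the 2 groups nearly met, it can change with the scaling. In 0 of the 43 did both GAP43 libraries lie above, against 17.1% of all genes tested. Among protein-coding genes that share was 8.31% at 10 to 30 FPKM, 4.09% at 30 to 100 and 4.98% at 100 or more. Among the genes under the filter, which were not tested, PSMA2 and PSMD9 lay above both controls in both GAP43 libraries, from few fragments. Together the 46 genes took 0.566% and 0.448% of all fragments in GAP43 cells, against 0.599% and 0.580% in Control cells. In bulk RNA, fewer cells with a transcript and less of it per cell cannot be told apart.

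No single proteasome gene passed the test after adjustment. With limma and Benjamini-Hochberg adjustment over all 13507 genes, 0 genes of any kind passed an adjusted p of 0.05, and the smallest adjusted p among the proteasome genes was 0.692. At an unadjusted p under 0.05 limma called 383 genes lower (2.84%) and 412 higher (3.05%), and among the proteasome genes 1 lower (PSMC1) and 0 higher. With the FPKM divided by their sum in each library the genes called were 213 lower and 577 higher, and with median-ratio scaling they were 280 lower and 492 higher. The first of these scalings moved the median of all genes by 0.10, to 0.07. The proteasome median was -0.34 with the deposited FPKM, -0.23 with the FPKM divided by their sum and -0.25 with median-ratio scaling. The proteasome median lay 0.30 below that of all genes with the deposited FPKM (difference -0.30), and the difference was -0.30 with the FPKM divided by their sum and -0.29 with median-ratio scaling.

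**Figure D1:**
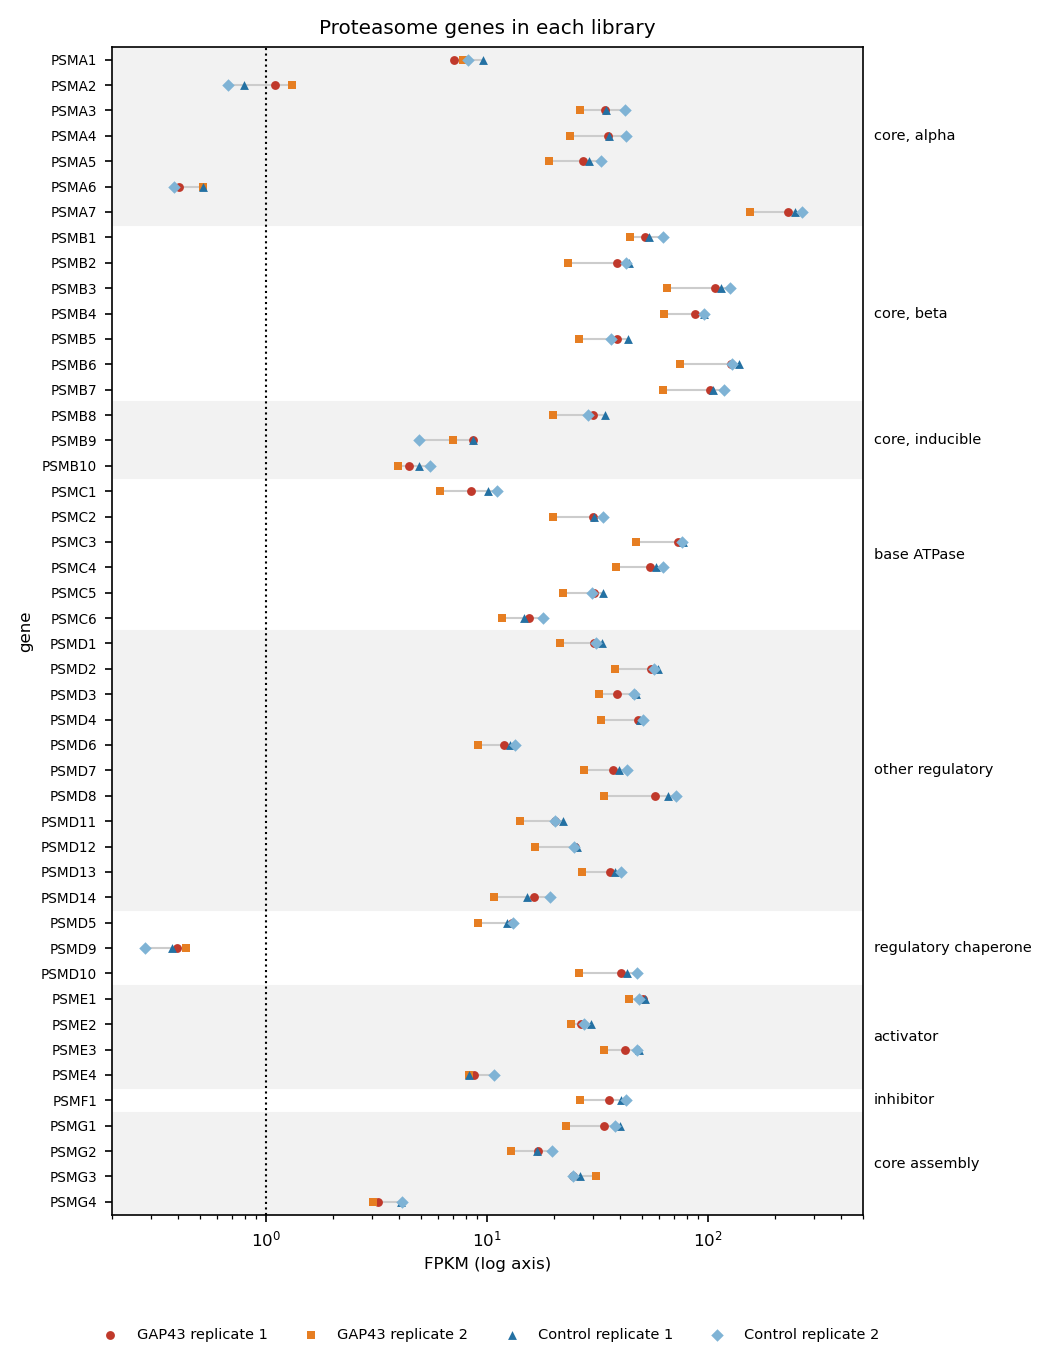
FPKM of the 46 proteasome genes in each library, on a log axis. Each row is a gene, each marker a library, the shaded bands separate the classes and the dotted line marks 1 FPKM. GAP43 replicate 2 (orange squares) is the lowest library for 39 of the 43 tested genes, and PSMA2, PSMA6 and PSMD9 lie near or below 1 FPKM. That library is the lowest for 43.8% of all genes tested and for 76.2% of protein-coding genes at 30 to 100 FPKM.

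On the deposited FPKM, the difference came mainly from GAP43 replicate 2. Against the mean of the controls, the median over the proteasome genes was -0.12 for GAP43 replicate 1 and -0.58 for GAP43 replicate 2 on the log2(FPKM + 1) scale, and of -0.04 and 0.04 in Control replicates 1 and 2. Over all genes tested the medians were -0.01 and -0.07 in GAP43 cells and -0.01 and 0.01 in Control cells. The direction was shared: 40 of 43 genes lay below the control mean in GAP43 replicate 1 and 41 of 43 in GAP43 replicate 2. Of all 13507 genes tested, 7087 lay below it in GAP43 replicate 1 and 7576 in GAP43 replicate 2. Of the 1099 protein-coding genes at 30 to 100 FPKM, 850 and 941 lay below it in these libraries, so most abundant genes shared this direction. Without GAP43 replicate 2 the median log2 fold change was -0.12, with 40 of 43 genes below 0. Without GAP43 replicate 1 it was -0.58. Without Control replicate 1 the median was -0.37 and without Control replicate 2 it was -0.34. Each of these fits left a single library in a group, so genes called in them are not counted here.

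**Figure D2:**
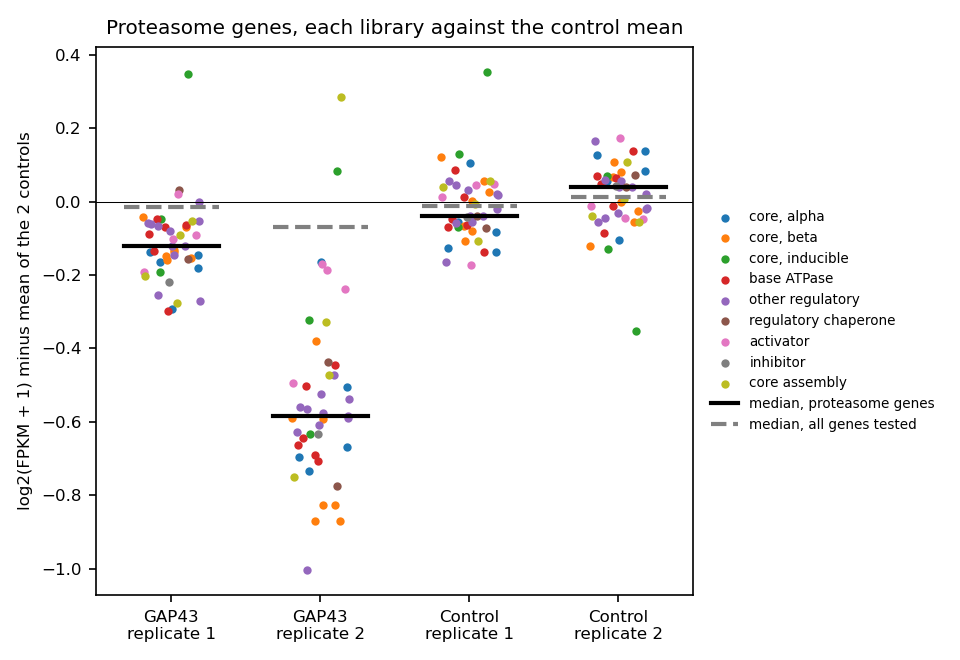
Each of the 43 tested proteasome genes (points, coloured by class) in each library, as log2(FPKM + 1) minus the mean of the 2 Control libraries. Black lines are the medians of the proteasome genes (-0.12 and -0.58 in the GAP43 libraries, -0.04 and 0.04 in the Control libraries) and dashed grey lines the medians of all genes tested.

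Because most members differed in the same direction, their promoters were searched for motifs of factors known to drive proteasome genes. RefSeq windows of GRCh38.p14, from 250 bases before to 50 after a gene's start, were matched by symbol for 40 of the 46 genes, and both strands were searched. TGACNNNGC, the antioxidant response element bound by NFE2L1 and NFE2L2, stood in 13 of 40 windows (32.5%) and in 13.6% of all 27305 windows. CCAAT, bound by NF-Y, stood in 18 (45.0%), against 35.7% of all. CCGGAAG, bound by ETS factors, stood in 12 (30%), against 10.6% of all. GAAANNGAA, bound by interferon regulatory factors, stood in 7 (17.5%), against 8.32% of all. None of these 4 motifs contains another. A match is a description of the letters only.

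Examples are shown for PSMB3, PSMD3, PSMG1, PSMA5 and PSMD8, each among the 3 smallest p-values of its class, for PSMD12, which had the largest p-value of its class, and for PSME2 and PSMB10, which are known to respond to interferon, with the motif in capitals and up to 20 bases on each side, or 10 where the gene model reaches into the stretch. Positions count back from -1 at the base before the start and on from 0 at the start.
PSMB3: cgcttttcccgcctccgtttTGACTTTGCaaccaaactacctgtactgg
PSMD12: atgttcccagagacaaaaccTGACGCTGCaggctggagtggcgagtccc
PSMD3: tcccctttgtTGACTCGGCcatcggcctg
PSMG1: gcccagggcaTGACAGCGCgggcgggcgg
PSMA5: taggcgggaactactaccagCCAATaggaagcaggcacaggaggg
PSMD8: caaaagccaaCTTCCGGtcaccatctt
PSME2: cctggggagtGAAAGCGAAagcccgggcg
PSMB10: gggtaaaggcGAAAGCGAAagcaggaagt
The antioxidant response element of PSMB3 lay at -104 to -96 (stretch chr17:38752617-38752665, plus strand), that of PSMD12 at -165 to -157 (chr17:67366714-67366762, minus strand), the one shown for PSMD3 at -37 to -29 (chr17:39980760-39980788, plus strand) and that of PSMG1 at -183 to -175 (chr21:39183616-39183644, minus strand). PSMD3 held a second such element, on the other strand, at 33 to 41. The CCAAT box shown for PSMA5 lay at -54 to -50 (chr1:109426478-109426522, minus strand), and that window held another at -83 to -79. The ETS motif of PSMD8 lay at -17 to -11 (chr19:38374544-38374570, plus strand), where the printed strand holds the reverse complement. The interferon motifs lay at -28 to -20 in PSME2 (chr14:24146620-24146648, minus strand) and at -21 to -13 in PSMB10 (chr16:67936853-67936881, minus strand).

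The log2 fold changes were close with and without each motif. The median log2 fold change was -0.29 for the 12 tested genes with the antioxidant response element and -0.34 for the 25 without it. It was -0.38 with and -0.31 without CCAAT, -0.32 with and -0.34 without the ETS motif, and -0.30 with and -0.34 without the interferon motif. No test was made between these sets.

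On the deposited FPKM, the alpha ring of the core lay below the controls in both GAP43 libraries for all 5 of its tested genes. Their log2 fold changes ran from -0.45 to -0.23. In PSMA1, PSMA3 and PSMA4 the nearest libraries of the 2 groups were so close that this order depends on the scaling. The same order held for 24.1% of all genes tested and for 54.7% of protein-coding genes at 30 to 100 FPKM. PSMA7 was the most abundant proteasome mRNA, at 229 and 154 FPKM in the GAP43 libraries and 247 and 267 FPKM in the Control libraries. Its log2 fold change was -0.45 ± 0.28 (SE, limma adjusted p = 0.692). PSMA4 had 35.3 and 23.6 FPKM in the GAP43 libraries and 35.6 and 42.5 FPKM in the Control libraries, where the nearest GAP43 and Control libraries almost met. PSMA5 had 27.0 and 19.01 FPKM in the GAP43 libraries and 28.99 and 32.7 FPKM in the Control libraries, without overlap, and a log2 fold change of -0.42. PSMA1 was the exception in the order of the GAP43 replicates, with 7.05 and 7.79 FPKM in GAP43 replicates 1 and 2 and 9.59 and 8.17 FPKM in Control replicates 1 and 2. It was the only tested core gene whose lowest library was GAP43 replicate 1.

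The beta ring showed the largest median of the classes with more than 1 tested member, at -0.45, and GAP43 replicate 2 was the lowest library for all 7 of its genes. That library was also the lowest for 76.2% of protein-coding genes at 30 to 100 FPKM and 84.7% at 100 FPKM or more. PSMB2 had 38.6 and 23.1 FPKM in the GAP43 libraries and 43.8 and 42.2 FPKM in the Control libraries. Its log2 fold change was -0.51 ± 0.27 (SE, limma adjusted p = 0.692). PSMB3 had 107 and 64.8 FPKM in the GAP43 libraries, against 114 and 125 FPKM in the Control libraries. In both genes the GAP43 replicates differed from each other by more than GAP43 replicate 1 differed from the controls.

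All 3 constitutive catalytic subunits had log2 fold changes below 0, and none was called. PSMB5, the chymotrypsin-like protease, had 38.5 and 26.1 FPKM in the GAP43 libraries and 43.3 and 36.5 FPKM in the Control libraries, so that the groups overlapped. PSMB6, the caspase-like protease, had 126 and 74.5 FPKM in the GAP43 libraries and 138 and 128 FPKM in the Control libraries. PSMB7, the trypsin-like protease, had 102 and 62.5 FPKM in the GAP43 libraries and 106 and 118 FPKM in the Control libraries. PSMB6 and PSMB7 did not overlap between the groups on the deposited FPKM. In each, GAP43 replicate 1 lay close to the lower control, so this order depends on the scaling. The log2 fold changes were -0.32 for PSMB5, -0.45 for PSMB6 and -0.48 for PSMB7.

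The inducible subunits, which replace the constitutive proteases in the immunoproteasome, had no common direction. PSMB8, which takes the place of PSMB5, had 30.1 and 19.7 FPKM in the GAP43 libraries and 34.2 and 28.4 FPKM in the Control libraries. PSMB9, which takes the place of PSMB6, had 8.62 and 7.01 FPKM in the GAP43 libraries and 8.65 and 4.92 FPKM in the Control libraries, with a log2 fold change of 0.22 that became -0.14 without Control replicate 2. PSMB10, which takes the place of PSMB7, had 4.43 and 3.95 FPKM in the GAP43 libraries and 4.91 and 5.50 FPKM in the Control libraries. Only PSMB10 showed no overlap between the groups, and the limma adjusted p-values of the 3 genes ran from 0.692 to 0.801.

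On the deposited gene lengths each inducible protease lay below the constitutive one that it replaces in all 4 libraries, but for PSMB8 this order depends on the length used. PSMB8 reached 0.782 and 0.757 of the PSMB5 level in GAP43 cells and 0.790 and 0.779 in Control cells. Rescaled to the principal transcript (the isoform GENCODE marks as such), PSMB8 averaged 50.2 and PSMB5 49.2 FPKM over the 4 libraries, so neither was clearly the higher, whereas PSMB9 averaged 28.7 against 198 for PSMB6 and PSMB10 averaged 7.15 against 177 for PSMB7. The ratios that follow use the deposited lengths. PSMB9 reached 0.0682 and 0.0940 of PSMB6 in GAP43 cells and 0.0627 and 0.0385 in Control cells. PSMB10 reached 0.0436 and 0.0633 of PSMB7 in GAP43 cells and 0.0465 and 0.0467 in Control cells. Of these ratios only PSMB9 to PSMB6 was higher in both GAP43 libraries, at 0.0811 ± 0.0183 in the GAP43 group and 0.0506 ± 0.0171 in the Control group (SD, n = 2 each, 2-sided exact permutation p = 0.33, the smallest that 2 against 2 allows). The ratio of the 3 inducible to the 3 constitutive sums was 0.175 ± 0.0186 in the GAP43 group and 0.152 ± 0.0203 in the Control group (SD, n = 2 each, exact permutation p = 0.667), and the libraries overlapped.

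**Figure D3:**
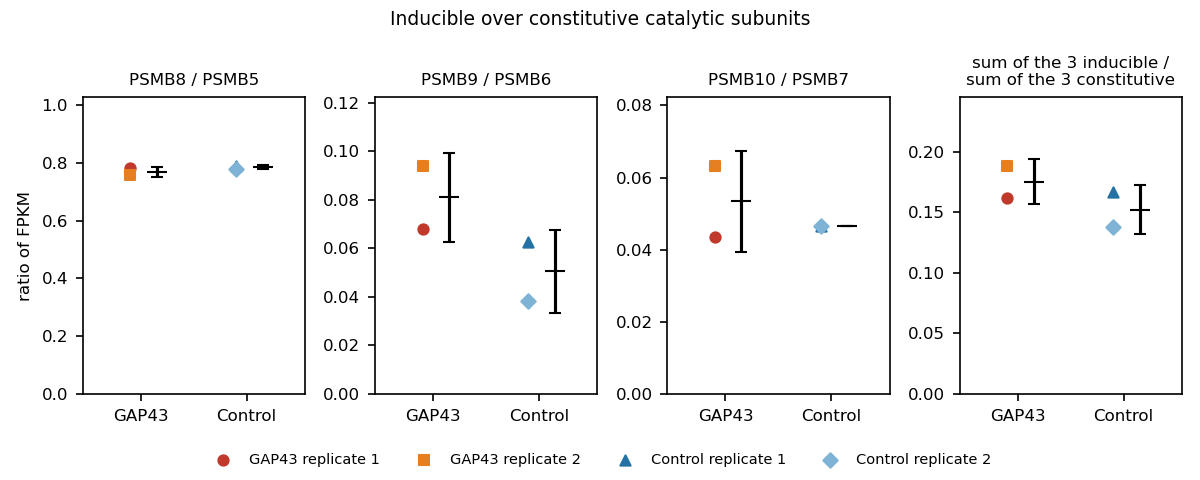
Ratio of the FPKM of each inducible subunit to the constitutive subunit it replaces, and of the 3 sums, in each library. Markers are libraries, and the black bars are the mean ± SD of the 2 libraries of a group. PSMB9 to PSMB6 is higher in both GAP43 libraries, and the other 3 ratios overlap or nearly coincide between the groups.

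The ATPases of the regulatory particle base, PSMC1 to PSMC6, had log2 fold changes from -0.50 to -0.25, and 4 of the 6 showed no overlap between the groups. Both GAP43 libraries lay below both controls in 24.1% of all genes tested. Among protein-coding genes the share was 36.4% at 10 to 30 FPKM and 54.7% at 30 to 100 FPKM. PSMC1 (ENSG00000100764, chromosome 14 from 90256495 to 90275429 on GRCh38) had 8.41 and 6.09 FPKM in the GAP43 libraries and 10.1 and 11.1 FPKM in the Control libraries. Both GAP43 libraries were below both controls, with group means of 7.25 ± 1.65 FPKM in GAP43 and 10.6 ± 0.717 FPKM in Control cells (SD, n = 2 each). Its log2 fold change was -0.50 ± 0.20 (SE), with a limma unadjusted p of 0.0420 and an adjusted p of 0.692. The unadjusted p was 0.0526 without the filter on low genes, 0.0583 with the FPKM divided by their sum and 0.0545 with a constant prior variance. Of the principal transcript of PSMC1, 82.1% lay under exons of NRDE2 on the opposite strand, and the strand setting of the counting is not given in the sources used here, so reads of the 2 genes may not be told apart. NRDE2 had 1.31 and 1.16 FPKM in the GAP43 libraries and 1.08 and 1.19 FPKM in the Control libraries.

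The other ATPases were more abundant than PSMC1. PSMC4 had 54.8 and 38.2 FPKM in the GAP43 libraries and 58.2 and 62.3 FPKM in the Control libraries. PSMC2 had 29.998 and 19.8 FPKM in the GAP43 libraries and 30.5 and 33.6 FPKM in the Control libraries, where GAP43 replicate 1 all but met Control replicate 1. PSMC6 had 15.4 and 11.6 FPKM in the GAP43 libraries and 14.6 and 17.9 FPKM in the Control libraries, so that the groups overlapped.

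The remaining 11 regulatory subunits had log2 fold changes from -0.63 to -0.29, all below 0, and 9 of them did not overlap between the groups. Such an order, with both GAP43 libraries lower, held for 24.1% of all genes tested. It held for 36.4% of protein-coding genes at 10 to 30 FPKM and 54.7% at 30 to 100 FPKM. PSMD8 (ENSG00000099341, chromosome 19 from 38374536 to 38383824), a lid subunit, had the lowest log2 fold change of all members. It had 57.3 and 33.7 FPKM in the GAP43 libraries and 65.7 and 71.5 FPKM in the Control libraries, with group means of 45.5 ± 16.7 and 68.6 ± 4.06 FPKM (SD, n = 2 each) for GAP43 and Control cells. The log2 fold change was -0.63 ± 0.28 (SE, limma unadjusted p = 0.0675, adjusted p = 0.692). GAP43 replicate 1 lay -0.25 and GAP43 replicate 2 -1.003 from the control mean. PSMC1 and PSMD8 stand in the list of changed genes the study drew from these same libraries, so that listing is not independent evidence of their direction.

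PSMD3, a scaffold subunit of the lid, differed more evenly between the replicates. It had 38.6 and 31.9 FPKM in the GAP43 libraries and 47.3 and 46.2 FPKM in the Control libraries, a log2 fold change of -0.40 ± 0.20 (SE, limma unadjusted p = 0.0823, adjusted p = 0.692). PSMD7, the partner of the deubiquitinase PSMD14, had 37.2 and 27.3 FPKM in the GAP43 libraries and 39.6 and 42.9 FPKM in the Control libraries. PSMD12, another lid subunit, had 25.0 and 16.4 FPKM in the GAP43 libraries and 25.4 and 24.7 FPKM in the Control libraries, with GAP43 replicate 1 between the controls.

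The subunits that handle ubiquitin followed the same pattern. PSMD2, which docks shuttle proteins that carry ubiquitylated substrates, had 55.0 and 37.8 FPKM in the GAP43 libraries and 59.5 and 56.9 FPKM in the Control libraries. PSMD4, a ubiquitin receptor, had 48.1 and 32.9 FPKM in the GAP43 libraries and 49.2 and 50.7 FPKM in the Control libraries. PSMD14, which removes the ubiquitin chain, had 16.3 and 10.7 FPKM in the GAP43 libraries and 15.1 and 19.3 FPKM in the Control libraries, and was the one whose groups overlapped. Their log2 fold changes were -0.34 for PSMD2, -0.32 for PSMD4 and -0.34 for PSMD14.

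Of the chaperones that help assemble the base, PSMD10 (gankyrin) had 40.3 and 25.9 FPKM in the GAP43 libraries and 42.8 and 47.4 FPKM in the Control libraries, with a log2 fold change of -0.47 ± 0.25 (SE, limma adjusted p = 0.692). PSMD5 had 12.9 and 9.09 FPKM in the GAP43 libraries and 12.3 and 13.03 FPKM in the Control libraries, and its log2 fold change of -0.20 became 0.03 without GAP43 replicate 2. PSMD9 had 0.393 and 0.432 FPKM in the GAP43 libraries and 0.373 and 0.283 FPKM in the Control libraries, from 76, 74, 69 and 48 fragments, and was not tested.

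The 4 activators had the class median nearest to 0, at -0.15. PSME1 and PSME2, which form the interferon-inducible activator ring together, had log2 fold changes of -0.08 and -0.16. PSME1 had 50.8 and 43.9 FPKM in the GAP43 libraries and 51.7 and 48.5 FPKM in the Control libraries, and its log2 fold change became 0.03 with the FPKM divided by their sum and 0.01 with median-ratio scaling. PSME2 had 26.6 and 23.9 FPKM in the GAP43 libraries and 29.3 and 27.4 FPKM in the Control libraries, without overlap. PSME3, which forms the nuclear activator, had 42.0 and 33.9 FPKM in the GAP43 libraries and 48.5 and 47.7 FPKM in the Control libraries, a log2 fold change of -0.34. PSME4, a single-chain activator, had 8.70 and 8.27 FPKM in the GAP43 libraries and 8.24 and 10.8 FPKM in the Control libraries, and its log2 fold change of -0.14 became 0.04 without Control replicate 2. The ratio of PSME1 to PSME2 was 1.91 and 1.84 in GAP43 cells and 1.76 and 1.77 in Control cells (2-sided exact permutation p = 0.33).

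PSMF1, named for its inhibition of the core in the test tube, had 35.4 and 26.3 FPKM in the GAP43 libraries and 40.1 and 42.6 FPKM in the Control libraries, a log2 fold change of -0.43 ± 0.21 (SE, limma adjusted p = 0.692). Of the assembly chaperones, PSMG1 and its partner PSMG2 build the alpha ring. PSMG1 had 33.7 and 22.8 FPKM in the GAP43 libraries and 40.1 and 37.8 FPKM in the Control libraries, without overlap, and a log2 fold change of -0.48 ± 0.24 (SE, limma unadjusted p = 0.0877, adjusted p = 0.692). PSMG2 had 16.9 and 12.8 FPKM in the GAP43 libraries and 16.7 and 19.6 FPKM in the Control libraries, so that GAP43 replicate 1 lay between the controls.

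PSMG3 and PSMG4, which form the other chaperone pair, did not follow each other. PSMG3 had 24.4 and 31.1 FPKM in GAP43 replicates 1 and 2 and 26.4 and 24.3 FPKM in Control replicates 1 and 2. It was the only tested proteasome gene whose highest library was a GAP43 library, and its log2 fold change of 0.12 became -0.05 without GAP43 replicate 2. PSMG4 had 3.204 and 3.05 FPKM in the GAP43 libraries and 4.06 and 4.11 FPKM in the Control libraries, with a log2 fold change of -0.30. PSMC3IP, the gene that matched by name only, had 7.07 and 5.52 FPKM in the GAP43 libraries and 7.24 and 5.87 FPKM in the Control libraries. With it the counts were 42 of 44 genes below 0 and 31 of 44 without overlap, and the median was -0.33.

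The members without values in the sentences above gave the same picture. PSMA3, PSMB1, PSMB4, PSMC3, PSMC5, PSMD1, PSMD6, PSMD11 and PSMD13 all had log2 fold changes below 0, none was called, and among them the groups overlapped in PSMC5 alone. Over all genes tested, both GAP43 libraries lay below both controls in 24.1%.

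Levels differed widely among genes whose products are assembled in equal copies. FPKM is scaled to length, so levels of different genes can be set side by side, but the deposited length is that of the union of all exons of a gene. Over the 14 constitutive core genes the highest level was 566 and 296 times the lowest in the GAP43 libraries and 478 and 699 times the lowest in the Control libraries. Without PSMA1, PSMA2 and PSMA6 the 11 others spanned 8.47- and 8.10-fold in the GAP43 libraries and 8.52- and 8.16-fold in the Control libraries, from PSMA5 as the lowest to PSMA7 as the highest. Rescaled to the principal transcript, the same 11 spanned 9.69- and 9.27-fold in the GAP43 libraries and 9.75- and 9.42-fold in the Control libraries. The length of the gene model was 1.16 to 12.4 times that of the principal transcript among the members, so single levels depend on that choice. PSMG4, with a gene model of 10418 bases and a principal transcript of 838 bases, averaged 3.61 FPKM on the first and 44.9 on the second.

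The 3 genes under the filter encode subunits or a chaperone that dividing cells are known to make. PSMA6, an alpha subunit, had 0.404 and 0.520 FPKM in the GAP43 libraries and 0.517 and 0.382 FPKM in the Control libraries, from 58, 66, 71 and 48 fragments. PSMA2, another alpha subunit, had 1.096 and 1.31 FPKM in the GAP43 libraries and 0.790 and 0.669 FPKM in the Control libraries, from 129, 136, 89 and 69 fragments. PSMA2 was thus higher in both GAP43 libraries, by counts that are small, and it was not tested.

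These low genes shared exons with other annotated genes. In GENCODE release 29, 81.0% of the principal transcript of PSMA6, 53.2% of that of PSMA1, 52.5% of that of PSMA2, 45.3% of that of PSMB10 and 43.8% of that of PSMD9 lay within exons of another gene on the same strand. Those 5 genes averaged 0.370 to 8.15 FPKM, whereas the 40 proteasome genes with no such sharing averaged 3.61 to 224 FPKM with a median of 34.7. Over all protein-coding genes in the file, the median was 0.378 FPKM for the 695 genes with more than 40% shared and 3.43 FPKM for the 14746 genes with none. The neighbour that shared most with PSMA6, RP11-561B11.2, had 0.0123 to 0.0268 FPKM, and that of PSMA2, RP11-111K18.1, was listed at 0 in all 4 libraries. How the counting treated fragments on shared exons is not given in the sources used here, and the part of sharing in these levels was not tested. Levels and group differences of these 5 genes are therefore uncertain. On the opposite strand, 50.4% of the principal transcript of PSMD7, 27.2% of that of PSMC5, 17.3% of that of PSMG2, 15.9% of that of PSMD13 and 12.0% of that of PSME2 lay under exons of another gene, beside the 82.1% of PSMC1, and the same limit holds for them.

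**Figure D4:**
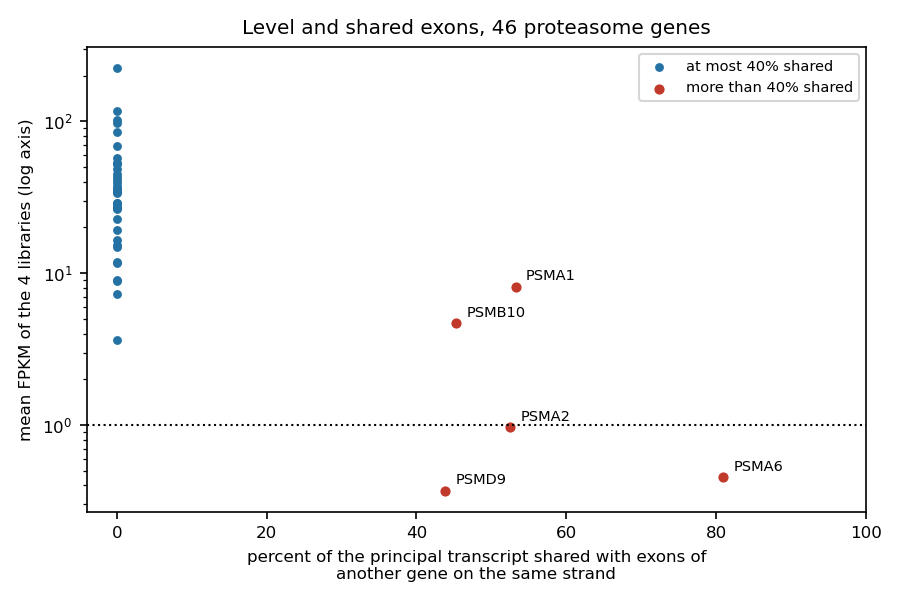
Mean FPKM of the 4 libraries, on a log axis, against the percent of each gene's principal transcript that lies within exons of another gene on the same strand. Points are the 46 proteasome genes and the dotted line marks 1 FPKM. The 5 genes with more than 40% shared average 0.370 to 8.15 FPKM.

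Abundant genes lay lower in the GAP43 libraries as a whole, and most proteasome genes are abundant. The median log2 fold change of protein-coding genes was -0.005 at a mean of 1 to 10 FPKM, -0.15 at 10 to 30, -0.27 at 30 to 100 and -0.44 at 100 or more. The proteasome genes in the same classes had medians of -0.24 (6 genes), -0.30 (14 genes), -0.37 (20 genes) and -0.45 (3 genes). The distance to the protein-coding genes of like level was thus smaller than that to all genes, and at 100 FPKM or more the medians nearly met. GAP43 replicate 2 also carried most of the difference in the other genes, with a median of -0.44 against the control mean for protein-coding genes at 30 to 100 FPKM and of -0.60 for the proteasome genes there, whereas GAP43 replicate 1 had -0.12 and -0.14.

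The order of the libraries, set beside genes of like level, was as follows. Both GAP43 libraries lay below both controls in 4 of 6 proteasome genes at 1 to 10 FPKM (17.4% of protein-coding genes there) and in 6 of 14 at 10 to 30 FPKM (36.4%). They did so in 18 of 20 at 30 to 100 FPKM (54.7%) and in 3 of 3 at 100 FPKM or more (68.5%). These are descriptions, as the members had been chosen with earlier results known.

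**Figure D5:**
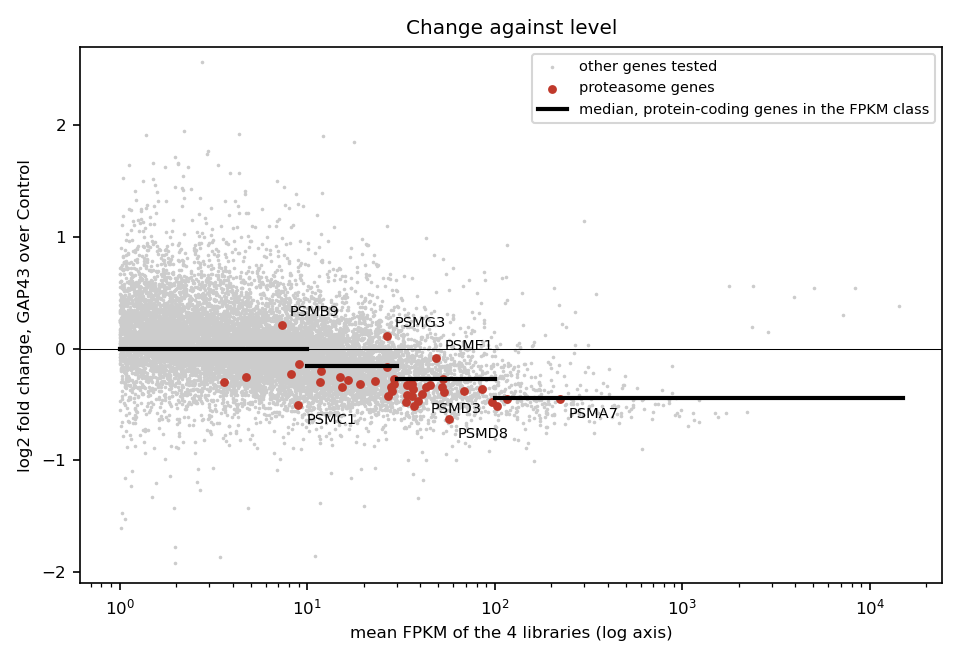
Log2 fold change (GAP43 over Control, on log2(FPKM + 1)) against the mean FPKM of the 4 libraries on a log axis, for all 13507 genes tested (grey) and the 43 proteasome genes (red). Black lines are the medians of protein-coding genes in 4 classes of mean FPKM, -0.005, -0.15, -0.27 and -0.44, and the proteasome genes lie mostly at or below them.

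Most genes of the wider ubiquitin-proteasome pathway also lay lower in the GAP43 libraries. Of 33 related genes, all tested, 30 had a log2 fold change below 0 (90.9%). That share was 55.5% over all genes tested and 74.2% over protein-coding genes at 10 to 30 FPKM. The related genes had a median of -0.23 at a median level of 19.1 FPKM, against 34.2 FPKM for the proteasome genes. Of them, 0 were called in either direction at an unadjusted p under 0.05. Both GAP43 libraries lay below both controls in 16 (48.5%) and above both in 1 (MAFG, 3.03%). Over all genes tested these shares were 24.1% below and 17.1% above, and over protein-coding genes 28.1% and 13.9%. Among protein-coding genes at 10 to 30 FPKM they were 36.4% and 8.31%. The difference between the related and the proteasome genes was not tested. Among proteasome subunits and cofactors outside the PSM names, 12 of 12 were below 0, with a median of -0.28. ADRM1, a ubiquitin receptor of the base, had 27.6 and 26.6 FPKM in the GAP43 libraries and 36.8 and 34.0 FPKM in the Control libraries, with a log2 fold change of -0.37 ± 0.18 (SE, limma unadjusted p = 0.0793, adjusted p = 0.692). In ADRM1 the GAP43 replicates lay close together, unlike in most subunits. Exons of other genes on the opposite strand covered 24.1% of the principal transcript of ADRM1, so the limit given for PSMC1 holds for it. POMP, the maturation factor of the core, had 84.0 and 69.2 FPKM in the GAP43 libraries and 88.9 and 104 FPKM in the Control libraries.

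RPS27A, which encodes ubiquitin fused to a ribosomal protein, had 245 and 168 FPKM in the GAP43 libraries and 276 and 335 FPKM in the Control libraries. UBB, a polyubiquitin gene, had 154 and 153 FPKM in the GAP43 libraries and 204 and 175 FPKM in the Control libraries. In both genes the GAP43 libraries lay below the controls, and in UBB the GAP43 replicates were nearly equal. Of the principal transcript of UBB, 37.6% lay under exons of another gene on the opposite strand, so the limit given for PSMC1 holds for it.

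The transcription factors and processing enzymes known to control proteasome genes had a median of -0.06 over 7 genes. NFE2L1 had 35.0 and 29.9 FPKM in the GAP43 libraries and 35.2 and 39.4 FPKM in the Control libraries, with a log2 fold change of -0.20 ± 0.19 (SE, limma adjusted p = 0.754). The 10 shuttle and unfoldase genes had a median of -0.16, near the -0.15 of protein-coding genes at 10 to 30 FPKM. In 3 of them (30%) both GAP43 libraries lay below both controls. That share was 36.4% of protein-coding genes at 10 to 30 FPKM and 28.1% of all protein-coding genes tested.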

How the data were processed

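Poly(A) RNA of 4 libraries was sequenced by the authors as 150 bp paired ends after random priming. The authors deposited FPKM values per gene and library. TopHat2 2.0.13, Cuffdiff, Cufflinks 1.1 and hg19 appear in the submitters' notes on processing. GENCODE release 29 (GRCh38) held 33057 of the 33845 gene IDs, with an equal exon length for 92.3% of them, and positions are therefore those of GRCh38. Which tool counted the fragments, and with which strand setting, is not given in the sources used here. Values times gene length were whole multiples of 1 step per library for 100.0% of values within 0.01, which gave the fragments.

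The genes that averaged 1 FPKM or more were compared as log2(FPKM + 1) with limma 3.58.1 (lmFit, eBayes with a trended prior) in R 4.3.3, 2-sided, with Benjamini-Hochberg adjustment over all genes tested. The script was checked on simulated data. Python 3.11.15 with pandas 2.3.3 gave the exon overlaps, motifs and ratios, and matplotlib 3.10.9 the figures. The members and lists were chosen with earlier results of these data known. Values are given for the 3 smallest and the largest p of each class with 4 or more tested members, for all members of the other classes, for the catalytic and ubiquitin-handling subunits, for PSMC1 and PSMD8, and for 5 related genes; 2 more that the rule names are not reported here. The settings varied were the pseudocount (0.1), the filter (none, or 1 FPKM in every library), the scaling (by sum or by median ratio), the prior variance (constant), the model (voom on recovered fragments), the gene types (protein-coding alone), a replicate block and the libraries (each left out in turn).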

Additional observations from a re-analysis of the deposited data

How the results depend on the processing

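The proteasome median log2 fold change stayed below 0 in every alternative, from -0.58 without GAP43 replicate 1 to -0.12 without GAP43 replicate 2, and 0 proteasome genes passed the adjusted test in any. Proteasome genes called lower at an unadjusted p under 0.05 numbered 0 without a filter, with the FPKM divided by their sum and with a constant prior variance, 2 with voom (PSMC1 and PSMD8), and 0 to 33 on leaving out 1 library, with 33 only without GAP43 replicate 1. Proteasome genes with both GAP43 libraries above the controls numbered 0 to 2 when 1 library was left out and only 3 libraries had to be ordered, an alternative chosen after seeing the data. The median of the related genes ran from -0.33 to -0.066 on leaving out 1 library, and related genes called lower numbered 1 without a filter and 0 to 12 on leaving out 1 library, with 12 without GAP43 replicate 1 and 1 without Control replicate 1. Over all genes, the adjusted test called 152 with the replicate block (32 lower, 120 higher) and 0 to 15 on leaving out 1 library, with 15 without Control replicate 1. The replicate numbers do not pair the samples by any source, and deviations of equally numbered libraries correlated at -0.16. The block left 1 proteasome gene called (PSMC1), among 380 of 13507 genes called lower at an unadjusted p under 0.05. Crossed pairing, chosen after seeing the data, called 2 proteasome genes and 1 related gene, where 737 of 13507 genes were called lower and 668 higher. It called 0 genes after adjustment. The cause of these differences was not tested. With 2 libraries a group, no change of the size seen here was called after adjustment over all genes.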

Other observations

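PSM-named noncoding genes lay low in all libraries, apart from the antisense genes PSMA3-AS1 and PSMD5-AS1. PSMA3-AS1 had 6.72 and 7.68 FPKM in the GAP43 libraries and 5.83 and 4.97 FPKM in the Control libraries, and PSMD5-AS1 had 5.56 and 5.77 FPKM in the GAP43 libraries and 4.98 and 4.57 FPKM in the Control libraries. Both were higher in both GAP43 libraries, whereas PSMA3 was lower in both and PSMD5 overlapped between the groups. Both GAP43 libraries lay above both controls in 2309 of 13507 genes tested and in 1487 of the 10692 protein-coding ones. The share was thus higher among genes of other types, and no relation of antisense to sense genes was tested. The pseudogene PSMC1P1 had 1.58 and 1.51 FPKM in the GAP43 libraries and 1.58 and 1.61 FPKM in the Control libraries.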
